A study of Mus musculus with 12 samples.

Results

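Adipose progenitors (AP) from visceral fat were compared with AP from subcutaneous fat, across all genes, on 6 of the 12 Affymetrix arrays of the series. The 6 were chosen by their titles, 3 for AP from VAT and 3 for AP from SAT. All mice were C57BL/6, with no further genotype or treatment named, and the age of the animals is not given in the sources used here. SAT is the inguinal depot under the skin of the groin, and VAT is the perigonadal depot inside the abdomen. Per the series' design text, each depot of several mice was dissociated with enzymes, and antibody-coated beads then took lineage-positive blood cells and CD31-positive endothelial cells out of the stromal vascular fraction, the tissue without its fat cells. AP are thus the cells left behind, with no positive selection for a progenitor marker. The other 6 arrays hold unfractionated adipose tissue (AT), 3 from each depot, and serve here as a second look at the depot difference in RNA from other samples.

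Adipose progenitors are fibroblast-like cells of the fat stroma that can become adipocytes, and they carry the receptor Pdgfra on their surface. Inguinal and perigonadal fat arise in different places in the embryo, and their stromal cells keep expressing transcription factors of body position. Visceral fat is also covered by mesothelium, a thin epithelium that lines the body cavity and that subcutaneous fat lacks. In studies of single cells, fat stroma has been divided into interstitial progenitors with Dpp4, committed preadipocytes with Icam1 and regulatory cells with F3.

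Values are log2 intensities, so a difference of 1 is a change of 2-fold, and 22180 genes were tested. Array medians lay between 4.49 and 4.67 over all probe sets, and a mean of a group's arrays below 4.09 (percentile 40 over the table) is called near background here; a fold against such a mean is only a fitted value. Arrays of AP from the same depot correlated at 0.9902 to 0.9936 across genes, and arrays of AP from different depots at 0.9775 to 0.983; genes are not independent replicates. The first principal component of the 6 arrays held 56% of the variance and separated the depots. The labels call the 3 arrays of a group biological replicates but do not say which animals gave each. The p-values thus rest on the variation among the arrays of this series alone, and precision is limited by how few there are. In the main fit, the spread of each gene was estimated from the AP and AT arrays together. A standard error or p-value given for AP therefore also reflects scatter among whole-tissue arrays, and is not the spread of the AP arrays alone. In RNA of many cells, fewer cells of a type and less RNA per cell cannot be told apart.

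The label of progenitors was checked on Pdgfra and a marker list. Pdgfra, the receptor for platelet-derived growth factor A, was at 11.05, 11.02 and 11.15 in AP from SAT and at 11.05, 10.86 and 11.23 in AP from VAT. The depots overlapped, and the difference was -0.03 (standard error, SE, 0.23; limma adjusted p = 0.981). The antigen Ly6a was not analysed here. Of 13 progenitor markers measured, none was higher in VAT and 4 were lower, with a median difference of -0.35 against 0.0 over all genes. The 4 were the surface antigen Thy1 (mean 8.69 in SAT and 7.70 in VAT), the protease Fap (-0.80) and the chains of type I collagen, Col1a1 (-0.84) and Col1a2 (-0.69). With each array shifted to an equal level of housekeeping genes, 2 of the 4 stayed called.

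Markers of macrophages, lymphocytes and blood endothelium, cell classes removed by beads, were mostly not called. Over all genes 5.64% were called. Of 12 granulocyte and mast cell genes 4 were lower in VAT, and of 6 lymphatic endothelial genes 1 was, as given below. Of 16 macrophage and antigen presentation genes, none was called by limma (0 at an unadjusted p under 0.05), and their summed level on the log2 scale was 9.76 to 10.13 in SAT and 9.89 to 10.12 in VAT. Of 13 T and NK cell genes, only the granzyme Gzma was called, and it was lower in VAT (-0.90). Among 9 B cell genes the antibody chain Ighm was called, and it was higher in VAT (1.20, SE 0.32). Of 14 blood endothelial genes, 2 were higher and 1 was lower. Kdr, the main receptor for the growth factor VEGF-A, was at 5.19, 5.27 and 4.85 in SAT and at 6.30, 6.42 and 6.71 in VAT, without overlap (1.37, SE 0.17, limma adjusted p = 6.36e-05). The sialomucin Emcn was higher as well (0.81), while the angiopoietin receptor Tek was lower (-1.13). Pecam1, which encodes CD31 itself, differed by 0.04 (SE 0.12, limma adjusted p = 0.942).

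Progenitors of the depots differed in 1250 genes, 5.64% of those tested, by limma with Benjamini-Hochberg adjustment. Of these, 673 were higher in VAT (3.03%) and 577 were lower (2.6%), and 1247 had no overlap between the 3 arrays of each depot, against 20.4% of all genes. Calls and overlap come from the same values, so the 1247 give no separate support for the calls. At least 2-fold differences were called for 205 higher genes (0.924%) and 165 lower genes (0.744%). Scaling to housekeeping genes moved the median difference of all genes by 0.148 and left 643 higher and 250 lower, so 72.0% of the calls were higher instead of 53.8%; in that fit every gene received the same SE, 0.214. Of 10 housekeeping genes measured, B2m (-0.36) and Gusb (-0.43) were themselves called lower in VAT. Without replicate 1 of AP from SAT 357 genes were lower, and without replicate 2 of AP from VAT 344. Without replicate 3 of AP from VAT the balance turned, with 580 higher and 669 lower. Of the 1250 genes, 1191 stayed called under quantile normalization, 1172 under cyclic loess and 789 under housekeeping scaling.

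**Figure D1:**
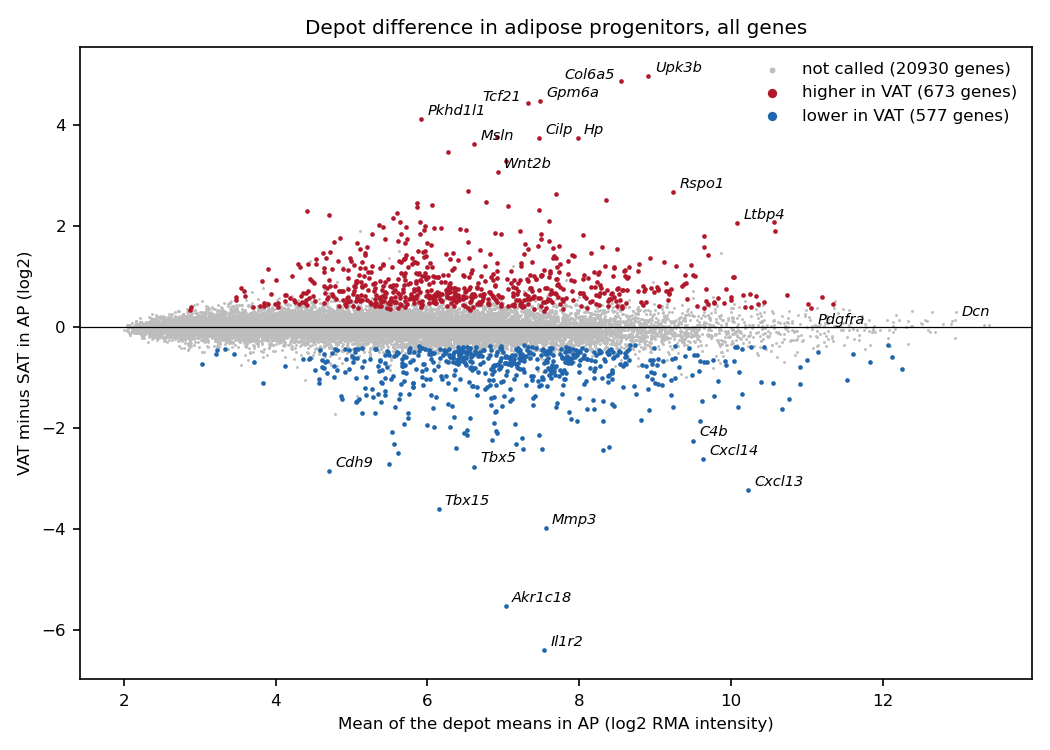
Each point is a gene: the horizontal axis gives the mean of its SAT and VAT means in AP (log2 RMA intensity) and the vertical axis the VAT minus SAT difference (log2). Red points are the 673 genes higher in VAT, blue points the 577 lower in VAT and grey points the genes not called; Il1r2 at -6.40 and Upk3b at 4.98 mark the ends of the range.

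The largest rises were led by genes of the mesothelium, the lining of the body cavity. Of 18 mesothelial markers, 17 were higher in AP from VAT and none was lower, with a median difference of 2.10, and their summed level on the log2 scale was 9.99 to 10.18 in SAT and 12.72 to 13.16 in VAT. Upk3b, a uroplakin of the mesothelial surface, was at 5.78, 7.18 and 6.30 in SAT and at 11.17, 11.39 and 11.64 in VAT. Every VAT array was far above every SAT array, and the fold was 31.6. Gpm6a, a membrane glycoprotein, stood at 5.24, 5.58 and 4.90 against 9.45, 9.83 and 9.87, again with no overlap (4.48, SE 0.19). The lumenal proteins followed, with the uroplakin Upk1b higher by 3.77 and mesothelin, Msln, by 3.63. The giant mucin Muc16 rose from near background in SAT (2.23), and so did the fibrocystin-like Pkhd1l1 (4.13).

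Keratins of simple epithelia rose less: Krt19 by 1.97, Krt18 by 0.92, Krt8 by 0.76 and Krt7 by 0.73. The calcium binder Calb2 was the exception among the 18, at -0.10 (limma adjusted p = 0.836) and near background in both depots. Genes among the 30 largest rises that stand outside the list include the protease inhibitor Slpi (3.29), the membrane-bound transcription factor Myrf (2.70) and ezrin, Ezr, which ties membrane to actin (2.10). Podocalyxin, Podxl, a sialomucin of lumenal membranes, rose by 2.16, and the neuronal tubulin binder Stmn2 by 2.45. Whole tissue gave the same picture for the mesothelial list, with 17 higher in VAT and a median of 1.84. How much of any other visceral rise comes with the mesothelial RNA in these arrays was not tested.

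TEAD factors, which act with YAP in mesothelium, bind a known core, GGAATG. Promoters of a pair of mesothelial genes that rose, Upk3b (4.98) and Lrrn4 (3.46), are shown because they hold this core. The letters are from RefSeq, build GRCm38.p6, from 250 bases before to 50 after the start, 5′ to 3′ on the gene's strand, with the core in capitals on either strand (CATTCC is its reverse complement). Upk3b lies at chr5:136038246-136038545 on the plus strand and Lrrn4 at chr2:132880813-132881112 on the minus strand.
Upk3b: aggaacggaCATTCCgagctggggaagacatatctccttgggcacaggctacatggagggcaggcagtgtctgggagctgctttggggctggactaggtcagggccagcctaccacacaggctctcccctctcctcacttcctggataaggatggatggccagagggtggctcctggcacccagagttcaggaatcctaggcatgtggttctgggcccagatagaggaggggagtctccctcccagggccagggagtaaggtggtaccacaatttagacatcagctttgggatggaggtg
Lrrn4: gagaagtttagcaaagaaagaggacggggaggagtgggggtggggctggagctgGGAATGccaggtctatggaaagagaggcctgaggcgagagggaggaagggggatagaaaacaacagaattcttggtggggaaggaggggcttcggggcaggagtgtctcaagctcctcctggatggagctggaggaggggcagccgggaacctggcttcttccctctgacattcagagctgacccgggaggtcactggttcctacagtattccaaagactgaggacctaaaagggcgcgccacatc
Each holds 1 core. It was found in 4 of the 11 mesothelial genes with a promoter in the table, in 15.4% of the promoters of all 16990 tested genes with one, and in 16.8% of those of genes called at least 2-fold higher. A match of letters is a description of the sequence and no evidence of binding.

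**Figure D2:**
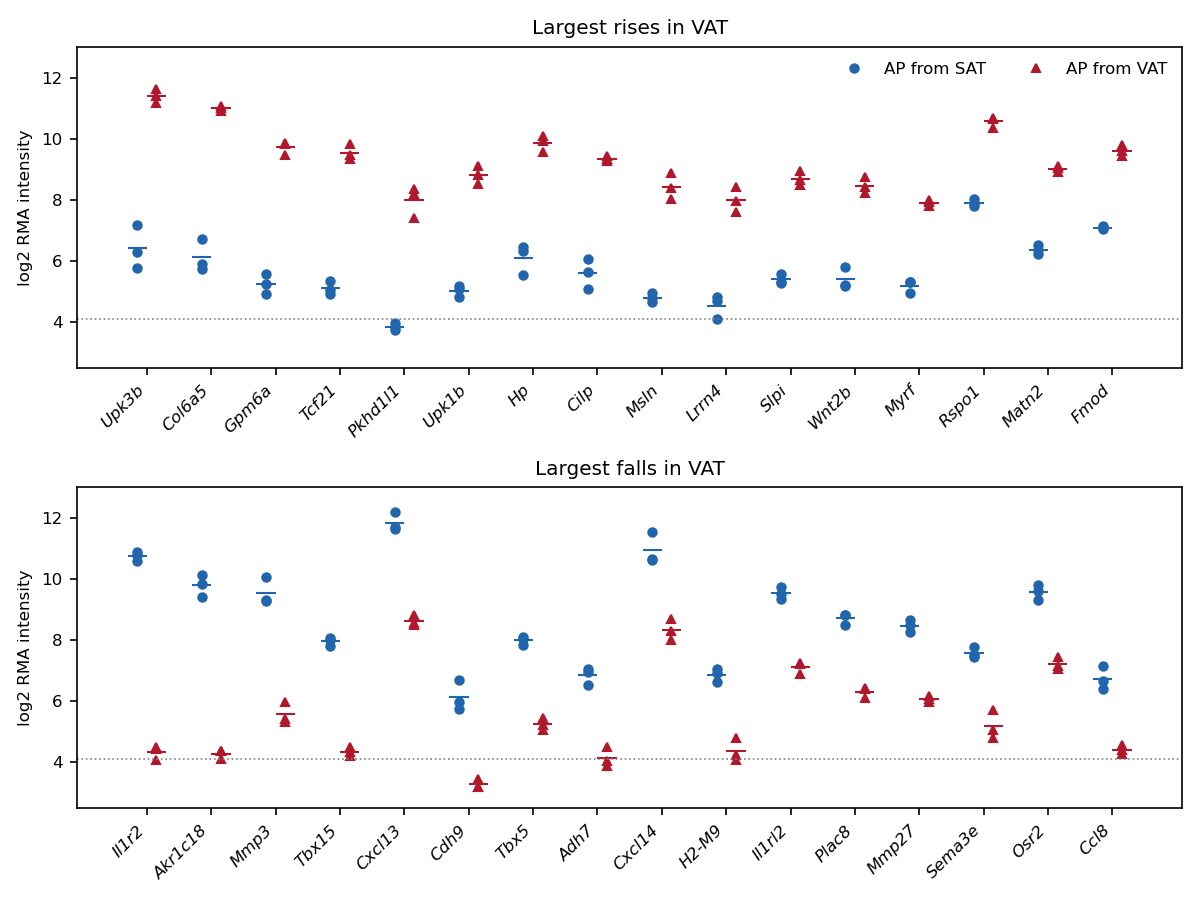
Points are the log2 RMA intensities of the 6 AP arrays for the genes with the largest called rises (upper panel) and falls (lower panel) in VAT; circles are AP from SAT, triangles AP from VAT, short lines the means of 3 arrays and the dotted line the background level of 4.09. Only genes whose 3 circles and 3 triangles do not overlap were eligible, so the gap is a condition of choice. The VAT arrays of Il1r2 lie between 4.08 and 4.50.

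Transcription factors of body position split by depot. Tcf21, a basic helix-loop-helix factor of visceral mesoderm, was at 4.93, 5.33 and 5.04 in SAT and at 9.83, 9.47 and 9.33 in VAT. The SAT arrays sat just above background and the VAT arrays were all high (21.8-fold, SE of the log2 difference 0.15). Of 13 factors of visceral position, 6 were higher in VAT and none was lower, with a median of 0.51. The GATA factors Gata5 (1.18) and Gata6 (1.05) and the LIM factor Isl1 (0.77) rose less than Tcf21, and Wt1 (2.40) and Bnc1 (1.84) are on the mesothelial list too. Osr1, a zinc finger factor of lateral mesoderm, did not overlap between depots but missed the threshold (0.51, limma adjusted p = 0.0563); with the AP arrays alone it was called (0.00793), as under 7 other alternatives.

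Factors of limb and body wall went the other way: of 12 factors of subcutaneous position, 7 were lower in VAT and none was higher (median -0.74). Tbx15, a T-box factor of skeleton and skin mesenchyme, was at 8.05, 7.79 and 8.01 in SAT and at 4.20, 4.34 and 4.49 in VAT, close to background there (-3.61, SE 0.16). The forelimb factor Tbx5 was at 8.11, 8.04 and 7.82 against 5.21, 5.05 and 5.43 (-2.76, SE 0.14). Both fell in every VAT array with a wide gap. Engrailed 1, En1, fell by 1.22, and the limb mesenchyme factor Prrx1 (-1.14) and the homeobox factor Shox2 (-1.02) fell too. Other developmental genes outside the list were among the 30 largest falls, namely the odd-skipped factor Osr2 (-2.37), Emx2 of the urogenital tract and brain (-2.09) and Mab21l1 (-2.08).

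HOX genes, which encode position along the body axis in the order of their clusters, changed in parts of the Hoxa and Hoxc clusters. Of 36 measured, 7 were higher in VAT, 2 were lower and 27 were not called (median 0.05). All 7 rises lay in 2 clusters. In the Hoxa cluster, Hoxa2, Hoxa3, Hoxa5, Hoxa6 and Hoxa7 were higher, by 0.43 to 1.84, while Hoxa4 and the measured genes beyond Hoxa7 were not called. Hoxa7 (0.43) was no longer called with any 1 of the 6 AP arrays left out (limma adjusted p from 0.0746 to 0.192). Under housekeeping scaling it was not called either (limma adjusted p = 0.129). Its difference there was larger, at 0.578, in a fit that gave every gene an SE of 0.214. Hoxa5 was at 4.68, 4.85 and 4.65 in SAT and at 6.68, 6.36 and 6.67 in VAT, and the groups did not overlap. In the Hoxc cluster the sign turned between the neighbours Hoxc9 and Hoxc8: Hoxc10 fell by 1.78 and Hoxc9 by 0.73, while Hoxc8 rose by 0.73 and Hoxc4 by 0.63. Between Hoxc8 and Hoxc4, Hoxc6 (0.20) and Hoxc5 (-0.05) were not called (limma adjusted p = 0.577 and 0.95). Under housekeeping scaling Hoxc9 was not called (limma adjusted p = 0.12). Hoxc10 was at 7.09, 7.33 and 7.30 in SAT against 5.33, 5.86 and 5.20 in VAT. No gene of the Hoxb or Hoxd cluster was called by limma, 2 of 18 had an unadjusted p under 0.05, and their largest difference was that of Hoxd9 (0.44, limma adjusted p = 0.122).

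**Figure D3:**
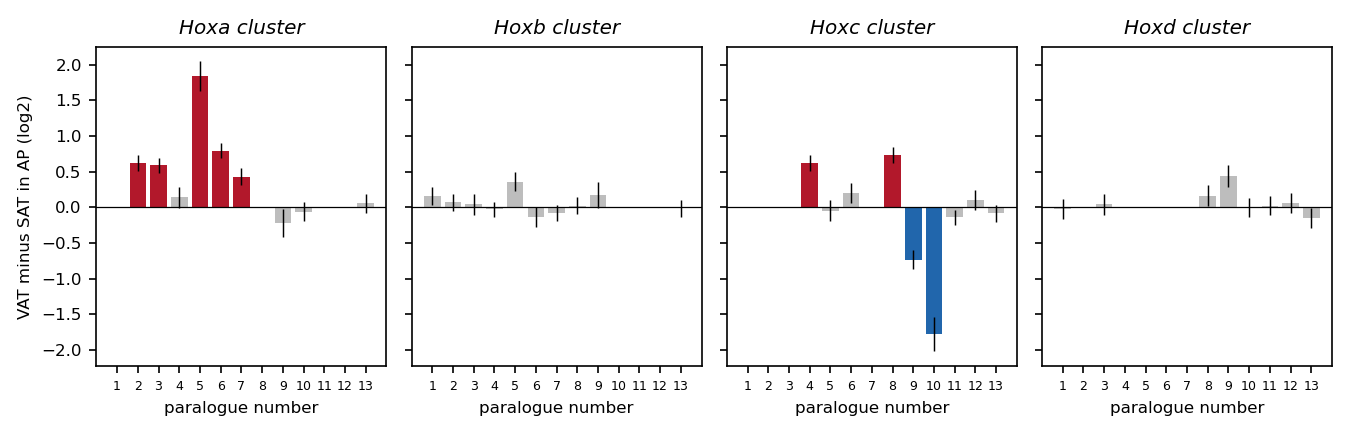
Bars give the VAT minus SAT difference in AP (log2) of each measured HOX gene by paralogue number in the 4 clusters, with the SE of the fit as error bars; red bars were called higher in VAT, blue bars lower, and grey bars were not called. The red bars run from 2 to 7 in Hoxa with a gap at 4, and in Hoxc the sign changes between 8 and 9.

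The deepest fall of all was in the receptor system of interleukin-1, a cytokine of inflammation. Il1r2, a decoy receptor that binds interleukin-1 without signalling, was at 10.87, 10.77 and 10.57 in AP from SAT and at 4.43, 4.50 and 4.08 in AP from VAT. All 3 SAT arrays were high and the VAT arrays lay around the background level, an 84.4-fold fitted difference (limma adjusted p = 3.51e-09). Of 11 genes of the family, 6 were lower in VAT and none was higher (median -0.50). In the RefSeq gene order of GRCm38.p6, Il1r2 is followed by the signalling receptor Il1r1 (-1.01), the interleukin-36 receptor Il1rl2 (-2.43), Il1rl1 (not analysed here), the interleukin-18 receptor Il18r1 (-0.96) and its partner Il18rap. All of these neighbours that were measured were lower in VAT and called, except Il18rap at -0.18 (limma adjusted p = 0.771). The cytokine Il18 fell by 1.03. The shared accessory chain Il1rap was called at -0.50, but as a mean over its probe sets it was at -0.176 and under housekeeping scaling at -0.355, called in neither (limma adjusted p = 0.417 and 0.63). The agonists Il1a (0.19) and Il1b (0.17) and the antagonist Il1rn (0.14) were not called.

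Chemokines, secreted proteins that guide leukocytes, were mostly lower in AP from VAT where they changed. Of 29 ligands and decoy receptors, 8 were lower and 1 was higher (median -0.20). Cxcl13, which attracts B cells, was at 11.64, 11.68 and 12.19 in SAT and at 8.48, 8.82 and 8.54 in VAT. It was high in all SAT arrays and remained well above background in VAT (-3.22, SE 0.53). The other lymph node stroma genes measured, 4 of them, were not called, and 0 of these had an unadjusted p under 0.05. Cxcl14 (-2.61), the monocyte attractants Ccl8 (-2.32) and Ccl7 (-1.11) and the neutrophil attractant Cxcl1 (-0.91) were lower too. Ccl2 differed by -0.77 with no overlap but was not called (limma adjusted p = 0.172). With the AP arrays alone Ccl2 was called (limma adjusted p = 0.0271), and under no other alternative. Of the decoy receptors, Ackr3 fell by 0.76 and Ackr4 rose by 0.72 from near background. Among 18 other cytokines and receptors, Il6 fell by 1.33 and the receptor Lifr rose by 0.97.

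Genes that interferon induces were lower in part. Isg15, a ubiquitin-like modifier, was at 6.75, 6.54 and 6.24 in SAT and at 5.46, 5.15 and 5.48 in VAT (-1.15, SE 0.13). Ifit1, an RNA sensor of the antiviral response, was at 7.82, 7.26 and 7.09 against 6.35, 6.24 and 6.17 (-1.14, SE 0.17). In both genes the depots did not overlap. Of 11 interferon-stimulated genes, 5 were lower and none was higher, with a median of -0.33; the antiviral Mx2 fell by 0.99, tetherin, Bst2, by 0.94 and the regulator Irf7 by 0.78. Outside the list, the interferon-induced protease Usp18 fell by 2.23, and the chemokines Cxcl10 (-1.90) and Cxcl9 (-1.65) fell too. Promoters of 4 of these genes are shown because they hold the core of the interferon-stimulated response element (GAAA, any 2 bases, GAAA), given in capitals on either strand (RefSeq, GRCm38.p6, 5′ to 3′ on the gene's strand, the same window as above). Isg15 is at chr4:156200769-156201068 (minus), Ifit1 at chr19:34640639-34640938 (plus), Bst2 at chr8:71537423-71537722 (minus) and Cxcl10 at chr5:92348840-92349139 (minus).
Isg15: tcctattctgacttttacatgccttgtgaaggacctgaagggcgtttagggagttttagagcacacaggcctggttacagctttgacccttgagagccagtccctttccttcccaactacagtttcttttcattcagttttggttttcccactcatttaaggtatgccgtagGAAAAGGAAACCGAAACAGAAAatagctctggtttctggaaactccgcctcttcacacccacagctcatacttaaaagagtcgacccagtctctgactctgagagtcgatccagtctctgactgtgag
Ifit1: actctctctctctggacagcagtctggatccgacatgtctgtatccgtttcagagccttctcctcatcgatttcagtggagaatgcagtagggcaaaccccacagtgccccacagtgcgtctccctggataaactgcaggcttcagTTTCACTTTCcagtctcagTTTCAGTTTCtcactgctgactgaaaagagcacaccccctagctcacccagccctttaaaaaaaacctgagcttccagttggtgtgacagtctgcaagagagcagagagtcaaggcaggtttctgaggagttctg
Bst2: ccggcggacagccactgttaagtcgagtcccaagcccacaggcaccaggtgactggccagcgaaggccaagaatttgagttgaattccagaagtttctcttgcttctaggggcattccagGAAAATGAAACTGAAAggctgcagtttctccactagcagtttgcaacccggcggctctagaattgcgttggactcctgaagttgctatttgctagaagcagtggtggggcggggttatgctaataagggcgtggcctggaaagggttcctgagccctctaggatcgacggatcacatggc
Cxcl10: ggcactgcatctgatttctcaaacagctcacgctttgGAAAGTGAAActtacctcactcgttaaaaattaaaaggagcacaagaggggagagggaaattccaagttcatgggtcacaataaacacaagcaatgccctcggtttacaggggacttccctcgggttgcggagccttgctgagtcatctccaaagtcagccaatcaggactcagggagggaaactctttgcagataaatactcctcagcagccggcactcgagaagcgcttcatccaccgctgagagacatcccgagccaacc
The core occurs 3 times in Isg15, with the copies overlapping, 2 times in Ifit1 and in Bst2, and 1 time in Cxcl10. It was in 6 of 9 promoters of the list, in 3.87% of the promoters of all tested genes, in 8.73% of those called at least 2-fold lower and in 3.5% of those called at least 2-fold higher.

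Matrix genes changed in both directions. Of 31 collagen chains, 5 were higher in AP from VAT, 7 were lower and 19 were not called (median -0.04, and 0.10 when scaled to housekeeping genes). Among chains of fibrillar collagens, the ropes of the matrix, Col1a1 fell by 0.84, Col1a2 by 0.69 and Col3a1 by 0.59, and the type V chains Col5a1, Col5a2 and Col5a3 fell by 0.69 to 0.78. With any 1 of the 6 AP arrays left out, Col1a2 and Col3a1 were no longer called (limma adjusted p from 0.0538 to 0.142). Scaled to housekeeping genes, Col1a1 stayed called, while Col1a2, Col3a1 and the type V chains did not (limma adjusted p from 0.0739 to 0.413). As a mean over its probe sets, Col5a1 was at -0.342 and was not called (limma adjusted p = 0.173). Col6a5, a long chain of type VI collagen, went far the other way, at 5.91, 6.70 and 5.72 in SAT against 10.92, 11.06 and 10.99 in VAT (29.4-fold). The VAT arrays differed from each other by far less than the depots did. Its relative Col6a6 rose by 1.54, while the common chain Col6a3 fell by 0.90. The basement membrane chains Col4a5 and Col4a6, which are neighbours on the X chromosome, rose by 1.03 and 1.24.

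Of 41 matrix glycoproteins, 15 rose, 3 fell and 23 were not called (median 0.32). Cilp, a cartilage matrix protein that binds growth factors, was at 5.09, 6.05 and 5.65 in SAT and at 9.26, 9.32 and 9.43 in VAT (3.74, SE 0.26). Matn2, an adaptor of matrix filaments, was at 6.22, 6.51 and 6.37 against 9.04, 8.91 and 9.09 (2.65, SE 0.11). The latent TGF-beta binder Ltbp4 rose by 2.06 and the elastic fibre protein Fbln5 by 1.22, with no overlap in any of these genes. Thrombospondins were divided, with Thbs1 higher by 1.00 and Thbs2 lower by 1.84. Among 12 small leucine-rich proteoglycans, Fmod, which binds collagen fibrils, rose by 2.52 and Epyc by 1.25, and Omd fell by 1.37. Epyc was near background in SAT.

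Among 28 matrix proteases and their inhibitors, 2 were higher and 4 were lower. Mmp3, or stromelysin, was at 9.32, 9.26 and 10.07 in SAT and at 5.32, 5.40 and 5.98 in VAT, a 15.8-fold difference with no overlap. Mmp27 fell by 2.40, and the gelatinase Mmp2, which cleaves denatured collagen, fell too (-1.05). Mmp3 and Mmp27 lie in a cluster of 9 metalloproteinase genes of RefSeq GRCm38.p6, and the other members differed by -0.10 to 0.26 and were not called. Mmp14, the membrane protease that activates Mmp2, differed by -0.68 (limma adjusted p = 0.0502); with the AP arrays alone it was called (0.00516), as under 6 other alternatives.

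Genes of Wnt signalling, which holds back fat cell formation in many systems, changed in both directions. Of 39 genes, 6 were higher in AP from VAT and 8 were lower, with a median of 0.14. Among ligands, Wnt2b was at 5.21, 5.80 and 5.17 in SAT and at 8.21, 8.42 and 8.75 in VAT (3.07, SE 0.18), while Wnt2 fell by 1.81 and Wnt10b by 1.34. Wnt2b was high in every VAT array and Wnt2 in every SAT array. Of the R-spondins, which strengthen Wnt signals, Rspo1 (2.67, also on the mesothelial list) and Rspo3 (1.63) rose and Rspo2 fell by 1.09. The secreted antagonists divided too: Sfrp1 rose by 1.81, and Sfrp4 (-1.69), Sfrp5 (-1.52), Sfrp2 (-1.36) and Dkk2 (-2.14) fell. Axin2, a common target of the pathway, rose by 0.70, and the receptor Ror1 by 1.14.

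Bone morphogenetic proteins changed in both directions too. Of 32 genes of BMP and TGF-beta signalling, 6 rose and 6 fell (median 0.23). Bmp4, which commits stem cells to the fat lineage, was at 7.18, 6.78 and 7.24 in SAT and at 7.89, 8.19 and 8.36 in VAT (1.08, SE 0.17). Bmp7, known from brown fat, was at 8.77, 8.52 and 8.14 against 6.80, 6.97 and 6.93 (-1.58, SE 0.17). The activin subunit Inhbb rose by 1.50, and follistatin, Fst, which binds activins, fell by 1.02. Scaled to housekeeping genes, 7 of the list were higher and 2 lower.

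Other growth factors followed single members. In the FGF family of 15 genes, Fgf1 rose by 1.60 and Fgf7 fell by 1.03. Of 11 genes of the IGF axis, Igf1 (1.04) and the binding protein Igfbp2 (1.01) rose, and Igfbp3 (-1.52) and Igfbp5 (-1.12) fell. Of 16 angiogenic genes, 3 rose and 2 fell. Vegfa, the main factor of blood vessel growth, was at 9.04, 9.03 and 8.95 in SAT and at 7.55, 7.42 and 7.16 in VAT, without overlap (-1.63, SE 0.15). Vegfc, the factor of lymphatic vessels, was at 6.45, 6.58 and 6.61 against 7.80, 8.22 and 8.29 (1.56, SE 0.16). These 2 ligands thus changed in opposite directions by a like amount, while Pdgfc fell by 1.15. Of 12 semaphorin and plexin genes, the guidance signal Sema3e fell by 2.39 and the receptor Plxna4 rose by 1.96. Slit2, another guidance signal, rose by 2.49.

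Interstitial progenitor markers were lower in AP from VAT. Of 13 genes of the Dpp4 list, 9 were lower in VAT and none was higher, with a median of -0.97. Pi16, a peptidase inhibitor of these cells, was at 11.56, 11.47 and 11.40 in SAT and at 9.80, 9.74 and 10.05 in VAT (-1.61, SE 0.30). Dpp4, the surface peptidase that names the state, was at 10.18, 9.78 and 9.70 against 8.32, 8.41 and 8.89 (-1.35, SE 0.28). The VAT arrays were lower in both genes but stayed far above background. The annexin Anxa3 fell by 1.46 and the mitochondrial protein Efhd1 fell too (-2.20); Wnt2 and Bmp7, named above, are members of this list too.

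The other states had no single direction. Of 9 genes of the F3 list, matrix Gla protein, Mgp (1.90), Fmo2 (1.44) and Vit (0.92) were higher, Igfbp3 (-1.52), Meox2 (-1.17) and Clec11a (-0.67) were lower, and F3 itself was at 0.47 (limma adjusted p = 0.0734). In the Icam1 list of 12 genes, the peptidase Ggt5 rose by 1.03, and lipoprotein lipase, Lpl, fell by 0.39. Pparg, the master regulator of fat cell formation, was at 7.53, 7.65 and 7.42 in SAT and at 6.87, 6.61 and 6.91 in VAT, lower in every VAT array (-0.74, SE 0.17); with either group's replicate 2 left out it was not called (limma adjusted p = 0.0648 and 0.0789). Of 19 adipogenic transcription factors, Pparg and Ebf3 (-0.69) were lower, and Klf15, a target of glucocorticoids, was higher (0.58). When scaled to housekeeping genes, neither fall was called. Of 15 factors that restrain the process, Sox9 rose by 1.74 and Gata2 by 0.52, and Twist1 fell by 0.96. Among 14 adipocyte genes, resistin, Retn, was higher (0.71), and the lipid droplet protein Plin4 was lower (-0.79), as was Lpl.

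**Figure D4:**
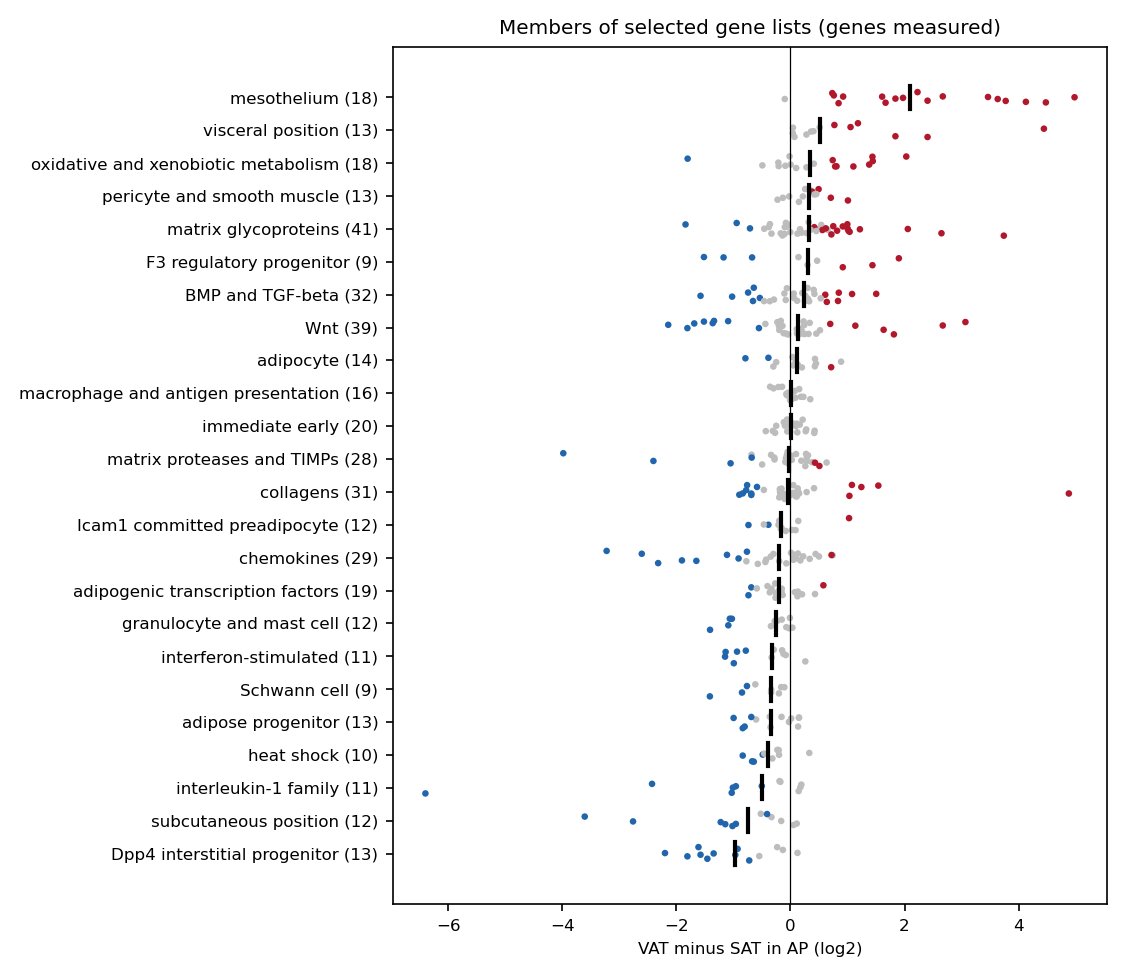
Each point is a measured gene of a list, placed by its VAT minus SAT difference in AP (log2); red points were called higher in VAT, blue points lower, grey points were not called, and black bars mark list medians, with the number of genes in brackets. The mesothelial median of 2.10 is at the top and the Dpp4 median of -0.97 at the bottom, while most other medians lie close to 0.

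Enzymes of hormone and drug metabolism held some of the largest changes. Akr1c18, which inactivates progesterone, was at 10.12, 9.84 and 9.40 in SAT and at 4.10, 4.35 and 4.36 in VAT, so that VAT lay just above background (45.8-fold, limma adjusted p = 2.71e-09). Of 21 steroid genes, 2 rose and 4 fell. Hsd11b1, which activates glucocorticoids, rose by 0.66, and Hsd11b2, which inactivates them, fell by 0.89, while the estrogen receptor Esr1 fell by 0.99. Of 22 retinoid genes, 3 rose and 3 fell. The enzymes that make retinoic acid, Aldh1a2 (1.67, also a mesothelial marker) and Aldh1a1 (1.21), were higher, and Cyp26b1, which degrades it, was lower (-0.98). Adh7, a retinol dehydrogenase, fell by 2.71. Of 18 genes of oxidative and xenobiotic metabolism, 8 rose and 1 fell (median 0.34), with the glutathione transferase Gsta3 at 2.03, Cyp1b1 at 1.38 and Cyp2f2 at -1.80.

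Signals to vessels and nerves changed as well. Ptgs2, the inducible cyclooxygenase, was at 11.68, 11.26 and 11.46 in SAT and at 9.98, 9.89 and 10.28 in VAT (-1.42, SE 0.31). It was not called without replicate 1 of AP from SAT or replicate 2 of AP from VAT (limma adjusted p = 0.0575 and 0.0588). Prostacyclin synthase, Ptgis, rose by 1.14, the prostaglandin-degrading Hpgd by 1.11 and the receptor Ptger4 by 1.32, so 3 of 12 prostaglandin genes were higher and 1 was lower. Of 13 vasoactive genes, the vasoconstrictor endothelin 1, Edn1 (-2.05), its receptor Ednrb (-2.14) and the angiotensin receptor Agtr1a (-0.69) were lower, and the natriuretic peptide receptor Npr3 was higher (0.89). Ednrb was at 8.54, 8.46 and 8.63 in SAT and at 6.44, 6.29 and 6.47 in VAT. Penk, the precursor of enkephalins, was at 9.51, 9.63 and 9.43 against 11.66, 11.57 and 11.58 (2.08, SE 0.21). Mme, the membrane peptidase that cleaves enkephalins, went the opposite way (-2.31).

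Haptoglobin was the acute phase gene with the largest difference. Hp, which binds free hemoglobin, was at 5.55, 6.32 and 6.45 in SAT and at 9.92, 9.56 and 10.08 in VAT (13.4-fold), and ceruloplasmin, Cp, rose by 1.59. They were the 2 of 11 acute phase genes that were called. Serum amyloid Saa3 was at 4.73, 5.03 and 11.77 in SAT and at 6.98, 6.40 and 8.07 in VAT, so replicate 3 of AP from SAT stood far above its group. Lipocalin 2, Lcn2, showed the same array at 9.22 against 5.10 and 5.23, so that the difference was 1.22 over all arrays (limma adjusted p = 0.528) and 2.57 without that array (limma adjusted p = 0.000344). Without that array Saa3 was 2.27 higher in VAT (limma adjusted p = 0.0458), and with it the difference was -0.03. In that array 21 genes were more than 1 on the log2 scale above both other SAT arrays, against 0 to 7 in the other 5 AP arrays. Prg4, or lubricin, was called lower in VAT (-1.81, SE 0.45) with SAT values of 7.78, 8.30 and 10.31 against a mean of 6.99 in VAT. The call was lost without replicate 1 or 2 of AP from VAT (limma adjusted p = 0.11 and 0.123) or with trend and robust options (0.15), and without replicate 3 of AP from SAT the difference was -1.05. Complement component C4b fell by 2.25, and its near copy C4a was not called (-0.56); a probe set for one may take up RNA of the other.

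Mast cell, Schwann cell and mural genes moved in small groups. Of 12 granulocyte and mast cell genes, 4 proteases of mast cells were lower in VAT: Mcpt4 (-1.41), Cma1 (-1.09), Cpa3 (-1.06) and Tpsb2 (-1.03). Cpa3 was at 10.29, 10.54 and 10.26 in SAT and at 9.56, 9.43 and 8.91 in VAT, and its call was lost with any 1 of the 6 AP arrays left out (limma adjusted p from 0.0516 to 0.138), with trend and robust options (0.102), quantile normalization (0.0549) or cyclic loess (0.0542). Of 9 Schwann cell genes, the myelin genes Mal (-1.41) and Mbp (-0.85) and the cadherin Cdh19 (-0.76) were lower. Of 13 pericyte and smooth muscle genes, 4 were higher, among them the contractile protein Cnn1 (1.01) and desmin, Des (0.71). Among 17 cadherins, Cdh11 (1.40) and P-cadherin, Cdh3 (1.28), were higher, and Cdh9 was lower (-2.86) and near background in VAT.

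Among genes that respond to handling of cells, none of 20 immediate early genes was called by limma (5 at an unadjusted p under 0.05, median 0.01, and 0.16 when scaled to housekeeping genes). Of 10 heat shock genes, 4 were lower in VAT and none was higher (median -0.39), with the chaperones Hsph1 at -0.84 and Hspa1a at -0.64; scaled to housekeeping genes, 1 of the 4 was called. Of 20 proliferation genes, the mitotic genes Ccnb2 (0.87) and Plk1 (0.84) were higher. No mammary or other epithelial gene of 13 was called (1 at an unadjusted p under 0.05), while 2 of 9 epidermal genes, Sbsn (-1.23) and Krtdap (-1.18), were lower in VAT. Of 11 gonad and epididymis genes, the cholesterol carrier Star (0.69) and the protease inhibitor Spink2 (0.63) were higher.

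Whole tissue gave the depot difference in other samples, whose arrays enter the comparison of progenitors through the shared estimate of spread. In AT 4.55% of genes were called, 2.8% as higher in VAT and 1.75% as lower. Of the genes called in AP, 381 were also called in AT (30.5% of those in AP and 37.8% of those in AT), 360 of them in the same direction and 21 in the opposite one. The 30 genes with the largest rises in AP were all higher in VAT in AT as well, 28 of them called. Of the 30 largest falls, 28 had the same sign in AT and 20 were called. The exceptions in sign were Cxcl13 (0.50 in AT, limma adjusted p = 0.732) and the adhesion receptor Adgrg6 (0.03, limma adjusted p = 0.977), neither called in AT. Cxcl13 was at 9.15, 7.52 and 10.55 in AT from SAT and at 9.77, 10.26 and 8.70 in AT from VAT, so the depots overlapped. Wnt2b was alike in both, at 3.07 in AP and 3.13 in AT, and so was Il1rl2, at -2.43 and -2.51. Across genes the differences in AP and AT had a Pearson correlation of 0.43, a description over genes that are not independent replicates.

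The interaction, which tests whether the depot difference in AP equals that in AT, was called for 476 genes (2.15%), 284 of them called in AP. It was called for 264 genes without replicate 1 of AP from SAT, 309 without its replicate 2, 279 with replicate 2 of AP from VAT left out and 293 with replicate 1 of AT from SAT left out. Tcf21 differed by 4.44 in AP and by 0.85 in AT (limma adjusted p of the interaction 7.64e-07). Hp differed by 3.75 and 0.33, and Matn2 by 2.65 and 0.57. Among genes lower in VAT, Il1r2 differed by -6.40 in AP and -4.27 in AT, and Ednrb by -2.14 and -0.01. Of the 476 genes, 305 had opposite signs in AP and AT, whether or not each difference was called, among them Cxcl13 at -3.22 and 0.50, Prg4 at -1.81 and 2.55, and Ntrk3, a neurotrophin receptor, at 0.79 and -1.97. Others were called between depots in whole tissue and not in AP, with the serpin Serpina3b at 0.01 in AP and 4.67 in AT and the brown fat gene Cidea at 0.05 and -4.53; neither difference in AP was called (limma adjusted p = 0.995 and 0.982), and Serpina3b was near background in AP.

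**Figure D5:**
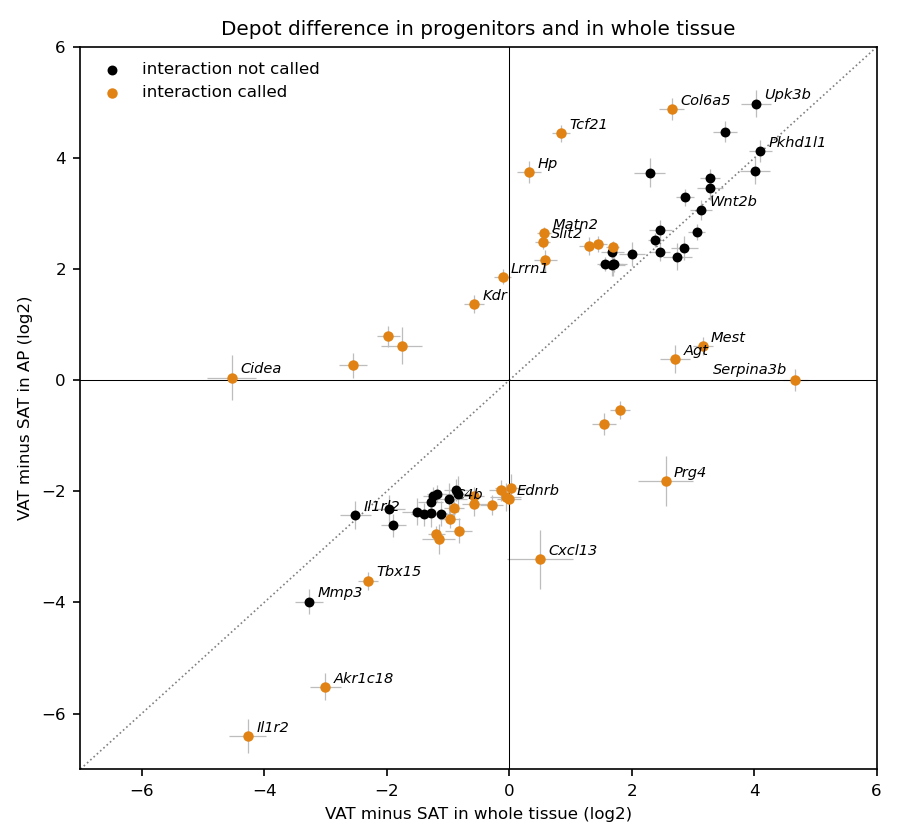
Each point is a named gene, with its VAT minus SAT difference in whole tissue on the horizontal axis and in AP on the vertical axis (both log2) and SE bars; orange points were called in the interaction, black points were not, and the dotted line marks equal differences. Upk3b and Pkhd1l1 lie near the line, Tcf21 (4.44 in AP) and Hp (3.75) lie far above it, and Cxcl13 (-3.22 in AP) lies below it.

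Of 483 microRNA genes tested, 6 were called, 2 higher in VAT and 4 lower, a smaller share than the 5.64% of all genes. These were chosen after their values were seen. Mir199a-1 was at 5.79, 5.35 and 5.92 in SAT and at 4.52, 4.43 and 5.13 in VAT, lower in every VAT array (-0.99, SE 0.17, limma adjusted p = 0.00204). Mir199b, on another chromosome, fell by 0.73 near background. They are shown because the 3p products of both have the same letters, with the seed (bases 2 to 8) in capitals; sequences are from RefSeq, GRCm38.p6. The 3p products lie at chr9:21496498-21496519 (minus strand) and chr2:32318524-32318545 (plus strand), and the 5p product of Mir199a-1 at chr9:21496537-21496559 (minus strand).
mmu-miR-199a-3p: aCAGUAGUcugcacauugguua
mmu-miR-199b-3p: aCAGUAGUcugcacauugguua
mmu-miR-199a-5p: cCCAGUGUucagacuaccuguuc
Array probes for these genes may read the precursor, so the values do not give levels of the mature products. Mir145a, a microRNA gene of smooth muscle, rose by 0.94, from near background.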

How the data were processed

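RNA of 12 samples was labelled with the Affymetrix WT PLUS kit, per the labels' protocols. The table deposited by the authors holds 1 log2 intensity per probe set and array, summarised with RMA in Affymetrix Expression Console 1.3.0.187, per the submitters' processing notes. The values were used as deposited. Of 41345 probe sets, 23521 were annotated to 1 gene, 1814 to several and 16010 to none; for the 1082 genes with several probe sets the one with the highest mean was kept, leaving 22180 genes.

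A linear model with a mean for each of the 4 groups was fitted to the 12 arrays together (limma 3.58.1, R 4.3.3; 8 residual and 6.84 prior degrees of freedom). Tests were 2-sided with Benjamini-Hochberg adjustment over all genes, with calls made below 0.05. The script was tested on simulated data.

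The compared groups, 57 gene lists (837 of 910 genes measured) and tests were chosen with earlier results of these data known. Named genes are the 30 largest called rises and falls without overlap, list members beside their list's count, the largest differences in the interaction, and those said to be chosen after their values were seen. Alternatives were the replicate number as a term, the compared arrays alone, trend and robust options, array weights, quantile normalization, cyclic loess, housekeeping scaling, a filter at the 40th percentile, other probe set rules, a size limit and each array left out.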

Additional observations from a re-analysis of the deposited data

Results flagged for a closer look

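For the genes below, the VAT minus SAT difference in AP differed from that in whole tissue by limma's test of the interaction (adjusted p under 0.05), and the value given is the difference in AP minus that in AT, on the log2 scale. Among genes whose value was above 0, those of transcription factors were Tcf21 (3.60), Sox9 (0.90), Wt1 (0.71) and Hoxa3 (0.67). Matrix and adhesion genes above 0 were Col6a5 (2.23), Matn2 (2.08), Podxl (1.57), Cdh19 (1.30), Mgp (1.12), Itga8 (1.00), Col6a6 (0.97), Epyc (0.91) and Col4a6 (0.88). Ligands and receptors above 0 were Ntrk3 (2.76), Kdr (1.95), Slit2 (1.94), Ptger4 (1.48), Lifr (1.35), Inhbb (1.27), Emcn (1.16) and Igf1 (0.87). Enzymes and other proteins above 0 were Cidea (4.58), Hp (3.42), Cp (1.64), Ggt5 (1.28), Actn3 (1.03), Stmn2 (1.00), Hsd11b1 (0.98) and Plk1 (0.86).

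Among genes whose value was below 0, the transcription factors were Tbx5 (-1.57), Emx2 (-1.51), Tbx15 (-1.30), Esr1 (-0.89), Osr1 (-0.88) and En1 (-0.82). Immune genes below 0 were Cxcl13 (-3.73), Il1r2 (-2.13), C4b (-1.96), Cxcl10 (-1.73), Usp18 (-1.67), Il6 (-1.56), Cxcl9 (-1.24), Ccl7 (-1.19) and Isg15 (-0.88). Ligands, receptors and binding proteins below 0 were Ednrb (-2.14), Adgrg6 (-1.97), Igfbp3 (-1.43), Wnt10b (-1.01), Pdgfc (-1.01), Vegfa (-0.93), Wnt2 (-0.86) and Ntrk2 (-0.82). Enzymes and peptidases below 0 were Mest (-2.55), Akr1c18 (-2.52), Adh7 (-1.88), Cyp2f2 (-1.75), Mme (-1.40) and Lpl (-0.55). The other genes below 0 were Serpina3b (-4.66), Prg4 (-4.36), Cdh9 (-1.70), Sbsn (-1.58), Reln (-1.21), Plin4 (-1.10), Itga6 (-1.04) and Mir199b (-0.75). The VAT arrays of AP for Cdh9 and all AP arrays for Serpina3b were near background, so their values are fitted ones.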

How the results depend on the processing

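With a log2 difference of at least 1 also required, 205 genes were higher and 165 lower in AP, 221 were called in the interaction, and 154 were higher and 97 lower in AT. Scaling to housekeeping genes, whose fit gave all genes 1 common variance, left 250 lower in AP, 265 in the interaction and 187 lower in AT. The AT arrays alone gave 398 higher and 203 lower. With 1 array left out, 492 to 580 genes were higher and 344 to 669 lower in AP, 264 to 626 were called in the interaction, and 412 to 642 were higher and 244 to 420 lower in AT. AT counts moved most without replicate 1 of AT from SAT (412 higher, 248 lower) and replicate 3 of AT from VAT (244 lower).

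No called difference of a gene named here changed direction under any alternative run. Of 208 such genes, 161 kept their call throughout, and 39 lost it without at least 1 AP array, at adjusted p from 0.0505 to 0.192: Agtr1a, B2m, Ccnb2, Cdh19, Clec11a, Cnn1, Col1a2, Col3a1, Col5a1, Cpa3, Emcn, Fap, Gata2, Gfra1, Gusb, Hoxa7, Hsd11b1, Hspa1a, Ighm, Il18, Il18r1, Irf7, Itga6, Klf15, Lamb1, Lpl, Mal, Mest, Mir145a, Ndn, Nid2, Ntrk3, Pparg, Prg4, Ptgs2, Ptx3, Retn, Serpinh1 and Tek. Housekeeping scaling ended the call of 26 named genes, all but Hoxa7 lower in VAT, among them Ackr3, Ebf3, Hoxc9, Mir199b and Plin4, which no other alternative did. The mean over probe sets ended it for Col5a1, Gfra1, Ighm, Il1rap and Lpl and moved Axin2 to 0.370, Cyp2f2 to -1.01, Efhd1 to -1.22 and Sfrp2 to -0.860. Trend and robust options ended it for Cpa3, Ighm, Mal, Prg4 and Ptx3, quantile normalization and cyclic loess for B2m, Cpa3 and Ndn, and the AP arrays alone for B2m and Gusb. Calls were gained by Osr1 under 8 alternatives and Mmp14 under 7, and by F3, Hoxd9, Ccl2, C4a, Lcn2, Chl1, Fgf23 and Fhl4 under 1 or 2. The direction turned for genes that were not called in the main fit. Of these, Saa3 was called in its new direction without replicate 3 of AP from SAT (2.270, limma adjusted p = 0.0458). Quantile normalization put Pdgfra at 0.038, Saa3 at 0.055 and Serpina3b at -0.011, and with cyclic loess they were at 0.026, 0.035 and -0.034. Housekeeping scaling put Pdgfra and Saa3 at 0.122 each and Calb2 at 0.048, and array weights put Saa3 at 0.100. With 1 AP array left out, the differences ranged from -0.118 to 0.067 for Pdgfra, -1.250 to 2.270 for Saa3, -0.120 to 0.075 for Serpina3b, -0.223 to 0.037 for Calb2, -0.037 to 0.103 for Cidea, -0.022 to 0.263 for Hoxa4, -0.027 to 0.330 for Il1b, -0.100 to 0.555 for Mael and -0.027 to 0.133 for Pecam1. The cause was not tested.

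The replicate block, with the replicate number as a term, gave 641 genes higher and 546 lower in AP, of which 1127 were also called without it. With it B2m, Cpa3, Gusb, Hoxa7, Mest and Ndn lost their call (adjusted p from 0.052 to 0.0748), and Mmp14 (0.0417) and Osr1 (0.0419) gained one; no other call of a named gene changed. Deviations of same-numbered AP arrays correlated at 0.02, 0.118 and 0.087, and those of differently numbered ones at -0.179 to 0.083. Replicate 1 of AP from SAT correlated better with replicate 3 of AP from VAT (0.073) than with its own number. With deviations from means of only 3 arrays, these values cannot decide whether same-numbered arrays share animals. The main fit treated the arrays as unpaired. The interaction could not be fitted on the AP or AT arrays alone, since it needs both.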

Other observations

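Of 15 imprinted genes, the hydrolase Mest was higher in AP from VAT (0.61), and the growth suppressor Ndn (-0.56) and the amino acid transporter Slc38a4 (-1.26) were lower. Of 11 integrin alpha chains, Itga3 (1.02) and Itga8 (0.64) were higher, and the collagen receptor chain Itga2 (-1.02) and Itga6 (-0.55) were lower. Of 14 basement membrane genes, Nid2 (0.71) and Lamb1 (0.55) were higher. Among 12 neurotrophic genes, Ntrk3 was higher (0.79), and Ntrk2 (-0.86) and Gfra1 (-0.60) were lower. Of 6 lymphatic endothelial genes only the matrix protein Reln was called (-0.83), and of 10 skeletal muscle genes only Actn3 (1.93). Of 17 complement genes, C4b was lower and the membrane inhibitor Cd59a was higher (0.68), and of 9 serpins the collagen chaperone Serpinh1 was lower (-0.61). Of 2 erythroid and 4 sex-linked genes measured, none was called by limma, and 0 had an unadjusted p under 0.05.

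Single arrays stood apart in a few genes, chosen after their values were seen. In replicate 3 of AP from SAT, the hormone Fgf23 was at 8.06 against 4.77 and 4.43 in the other SAT arrays, the pentraxin Ptx3 at 10.09 against at most 8.04 (-1.69 over all arrays and -0.997 without that array), and the adhesion molecule Chl1 at 7.32 against 5.01 and 4.61. In replicate 2 of AP from VAT, the testis gene Fhl4 was at 5.47 against 3.80 and 3.75, and the germ line gene Mael at 4.53 against 3.24 and 3.22.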
